A study of Homo sapiens with 9 samples.

Results

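The transcripts described are those of 9 histone genes, HIST2H2BE, HIST1H2BK, HIST1H2BC, HIST1H2BD, HIST1H2BJ, HIST2H2AC, HIST1H2AC, HIST1H1C and HIST1H4H, out of 18522 genes in the deposited table. They were chosen by name after their differences between RASSF2 knockdown and control cells were known, so their differences between the groups are given below as a description, without a test. The cells were THP-1, a human acute monocytic leukemia line. The control group carried the shRNA shCTRL, and the knockdown groups carried shRASSF2-1 or shRASSF2-2, which are different shRNAs against RASSF2, a Ras association domain protein that binds the Hippo pathway kinases. All groups shared the lentiviral transduction and 96 h in puromycin at 1 ug/mL, and RNA came from 2.0 M viable cells per condition. Each of the 3 groups had 3 libraries, and because nothing states that these were separate cultures, p-values measure only the spread between libraries.

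Most histone genes of this kind are called replication-dependent. They lie in clusters, are transcribed mainly in S phase, and give mRNAs that end in a short stem-loop in place of a poly(A) tail. The stem-loop binding protein SLBP holds this end and takes part in its processing, translation and decay. Some of the genes can also give polyadenylated mRNAs, often by reading on past the stem-loop to a poly(A) signal, and such forms are known from differentiated and non-dividing cells. The libraries were enriched for poly(A) RNA, so the values cover polyadenylated transcripts and carry-over of other RNA, and need not follow total histone mRNA.

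The stem-loop was read from the GENCODE v29 transcript models, because it separates the usual histone mRNA end from a longer polyadenylated one. The consensus of the histone stem-loop was searched on the transcript's strand, and 5 of the 9 genes had a model that held it. Among all protein-coding genes 0.264% had such a model, and among the 71 genes with a HIST symbol 31 did (43.7%). In the following runs, written 5′ to 3′ as DNA, the capitals mark the 16 bases of the stem-loop and 5 bases stand on each side.
HIST2H2BE: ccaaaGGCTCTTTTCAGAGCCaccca
HIST1H2AC: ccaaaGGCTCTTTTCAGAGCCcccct
HIST1H2BC: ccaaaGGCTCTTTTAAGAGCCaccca
HIST1H2BD: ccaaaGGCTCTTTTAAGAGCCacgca
HIST1H4H: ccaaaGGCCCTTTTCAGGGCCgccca
In HIST2H2BE the model went on for 1729 bases past the stem-loop, and in the protein-coding HIST1H2AC model that held it for 1114 bases. Both ended with a poly(A) signal (AATAAA or ATTAAA) in the last 40 bases. HIST1H4H had a short model that stopped 18 bases past the stem-loop without that signal and a longer one that went on for 630 bases and held it. HIST1H2BC and HIST1H2BD each had one model that held the stem-loop and one that lacked it, and the latter ended with a poly(A) signal. In HIST1H2BD the model with the stem-loop also had that signal in its last 40 bases. In all, 6 of the 9 genes had a model with a poly(A) signal in its last 40 bases, the sixth being HIST1H2BJ. The models of HIST1H2BK, HIST1H2BJ, HIST1H1C and HIST2H2AC did not hold the consensus, which says only that it is absent from those models; most of them are short.

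Both H2A genes share a short stretch with an H2B gene that is transcribed in the opposite direction, and the results below turn on these pairs. On chromosome 1 (GRCh38.p14, RefSeq), 235 bases lie between the starts of HIST2H2BE (minus strand) and HIST2H2AC (plus strand). On chromosome 6, 245 bases lie between those of HIST1H2BC (minus strand) and HIST1H2AC (plus strand). The stretches are given on the plus strand, with capitals for the octamer (ATTTGCAT or ATGCAAAT), the CCAAT box (CCAAT or ATTGG) and the TATA box (TATAAA or TTTATA), each searched on both strands; these motifs do not overlap each other.
chr1:149886683-149886917: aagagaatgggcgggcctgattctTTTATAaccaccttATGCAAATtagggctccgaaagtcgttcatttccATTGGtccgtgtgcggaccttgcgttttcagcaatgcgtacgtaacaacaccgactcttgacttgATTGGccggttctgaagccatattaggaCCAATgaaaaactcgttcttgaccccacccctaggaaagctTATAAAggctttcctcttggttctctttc
chr6:26123927-26124171: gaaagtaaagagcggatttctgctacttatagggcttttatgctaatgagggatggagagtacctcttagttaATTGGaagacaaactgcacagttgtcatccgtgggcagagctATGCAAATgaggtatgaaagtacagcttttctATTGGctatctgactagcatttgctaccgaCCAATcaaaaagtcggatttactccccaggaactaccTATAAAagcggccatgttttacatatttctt
The first held 1 octamer, 3 CCAAT boxes and 2 TATA boxes, and the second 1, 3 and 1. In promoter windows of 300 bases, from 250 before to 50 after the start, the octamer was found in 6 of the 9 genes, the CCAAT box in 8 and the TATA box in 7. The shares among all 27305 promoters of that length were 1.8%, 35.7% and 12%. Among the other replication-dependent histone genes in the table, 37 had such a window, and 13, 33 and 20 of these held the motifs. Divergent genes share part of their windows, so these counts are not independent.

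The libraries held 13.3 to 20.1 M reads. Values are normalized read counts, that is, gene counts divided by one size factor per library, and they are not corrected for transcript length, so levels of different genes are not ranked. RASSF2 itself had 1064 ± 48.4 (SD, n = 3) in control, 164 ± 32.2 with shRASSF2-1 and 311 ± 43.5 with shRASSF2-2. The labels' flow cell names put control replicates 1 and 2 on a flow cell of their own, while control replicate 3 and all knockdown libraries shared another. Myeloid marker genes summed to between 57264 and 80219 in every library, but their members moved both ways: of 17 tested, 5 were higher and 7 lower with shRASSF2-1, and 9 and 7 with shRASSF2-2 (limma). CTSG, a granule protease, had 31089 ± 3953 in control and 1825 ± 552 with shRASSF2-2, while CSF1R, the macrophage growth factor receptor, had 2500.4 ± 566 and 9968 ± 138. FLT3 was at 451 ± 37.5, 47.4 ± 9.67 and 130 ± 22.9, and ITGAM at 512 ± 4.83, 1623 ± 129 and 1516 ± 32.1 (SD, n = 3). In the controls CD14 was at most 36.6 and MEIS1 at most 0.94. Genes listed as markers of other cell types summed to 5657 to 7343 in control, 4672 to 7281 with shRASSF2-1 and 5757 to 6741 with shRASSF2-2. That sum rests mostly on PECAM1, at 5936 ± 1023, 4072 ± 85.6 and 3945 ± 212. As PECAM1 was at 3772 or more in every library, the sum is not read as a measure of other cells. Of 9 tested, 5 were higher and 1 lower with shRASSF2-1 (median log2 difference 2.97), and 7 higher and 2 lower with shRASSF2-2 (median 3.90). COL1A1 had 21.7 ± 14.7 in control and 145 ± 35.7 with shRASSF2-2, and STAB1 had 8.57 ± 11.4, 141 ± 70.8 and 105 ± 36.8 (SD, n = 3). FCGBP was at 3.63 and 2.49 in control replicates 1 and 2, at 331 in control replicate 3, and at 119 to 1545 in the knockdown libraries. The epithelial marker KRT18 was at 0 and 0.83 in control replicates 1 and 2 and at 41.7 to 331 in the other libraries. The part of these markers in the histone results was not tested. In such bulk RNA, fewer cells with a transcript and less of it per cell cannot be told apart.

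Control replicate 1 was often the highest control for the replication-dependent histone genes. Of the 41 other replication-dependent histone genes in the table, 27 were highest of the controls in replicate 1. In 11 of them, such as HIST1H4C and HIST1H1E, replicate 1 was at least 10 and over 5-fold above both other controls. Over all genes that passed the filter on low values, these shares were 41.4% and 0.239%. But 24 of the 41, HIST1H1E among them, did not pass that filter. It removes genes that are high in 1 library only, so the shares are not a like comparison. The mitochondrial ribosomal RNA RNR2 was also highest there, at 382432 against 202415 and 143536. Without control replicate 1, the log2 differences of HIST1H1C from control moved from 1.54 and 0.06 to 1.23 and -0.24, and those of HIST1H4H from 1.32 and 1.08 to 2.71 and 2.46. The other 7 genes kept their direction. The part of RNA carry-over in the histone values was not tested. The summed value of the 9 transcripts did not share this pattern, with 491, 606 and 653 in control, between 1409 and 1644 for shRASSF2-1 and between 3394 and 3922 for shRASSF2-2.

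The H2B transcripts were low in control cells and stood highest with shRASSF2-2. H2B pairs with H2A in the nucleosome core. HIST2H2BE (identifier 8349, now H2BC21; chr1:149884459-149886682) had 53.2, 48.2 and 68.4 in the control libraries, 258, 253 and 248 with shRASSF2-1, and 1532, 1667 and 1981 with shRASSF2-2. No library of one group overlapped another group. On the log2(value + 1) scale its difference from control was 2.16 with shRASSF2-1 and 4.91 with shRASSF2-2 (SE 0.15 each).

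HIST1H2BK (85236, now H2BC12; chr6:27138293-27146858, minus strand) had 126, 159 and 181 in control, 573, 480.1 and 474 with shRASSF2-1, and 891, 1067 and 929 with shRASSF2-2. Again the 3 groups did not overlap, and the log2 differences from control were 1.72 and 2.64 (SE 0.15). HIST1H2BC (8347, now H2BC4; chr6:26113170-26123926, minus strand) followed the same order. Its values were 14.5, 14.9 and 7.50 in control, 38.1, 27.4 and 37.2 with shRASSF2-1, and 52.2, 77.2 and 69.2 with shRASSF2-2, with log2 differences of 1.44 and 2.37 (SE 0.31).

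HIST1H2BD (3017, now H2BC5; chr6:26158121-26171349, plus strand) differed from these in being high with one shRNA. It had 12.1, 19.1 and 21.6 in control, 23.8, 23.9 and 28.1 with shRASSF2-1, and 391, 379 and 447 with shRASSF2-2. Libraries with shRASSF2-1 lay just above the controls, with a log2 difference of 0.53 (SE 0.23), against 4.49 for shRASSF2-2. Against control replicate 3, which shared their flow cell, the shRASSF2-1 difference was 0.22. HIST1H2BJ (8970, now H2BC11; chr6:27132316-27132795, minus strand) was near the limit of counting in control, with 7.26, 0 and 10.3, where 3 reads in the second library equal 2.49. It had 15.2, 13.3 and 14.5 with shRASSF2-1 and 39.7, 31.8 and 26.4 with shRASSF2-2. Its groups did not overlap, but the log2 differences of 1.76 and 2.87 had an SE of 0.75. They were 0.66 and 1.78 without control replicate 2, and 0.44 and 1.55 against control replicate 3 by itself.

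**Figure D1:**
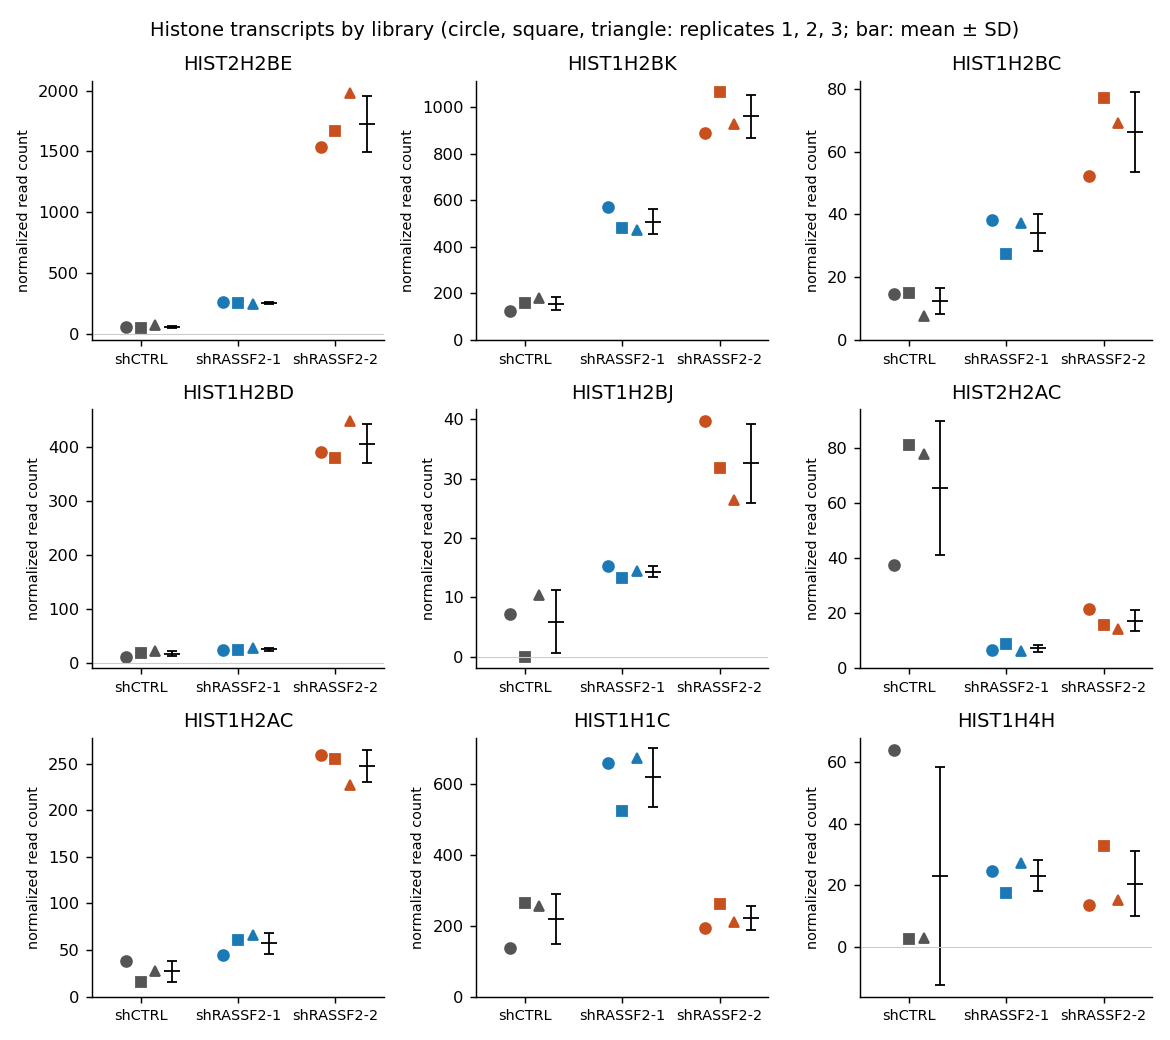
Normalized read count of each of the 9 histone transcripts, 1 panel per gene with its own linear axis; points are libraries coloured by group, with shapes for replicates, and bars are mean ± SD (n = 3). HIST2H2BE climbs from 48.2 to 68.4 in control to 1532 to 1981 with shRASSF2-2, HIST2H2AC is lowest with shRASSF2-1, and the control points of HIST1H4H spread from 2.49 to 64.1.

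The H2A transcripts went in opposite directions. HIST1H2AC (8334, now H2AC6; chr6:26124172-26124690) had 38.7, 15.8 and 27.2 in control, 44.8, 61.0 and 66.2 with shRASSF2-1, and 259.6, 255 and 227 with shRASSF2-2. Its groups did not overlap, and the log2 differences from control were 1.12 and 3.22 (SE 0.29). HIST2H2AC (8338, now H2AC20; chr1:149886918-149887411) was the one transcript of the 9 that was lower with both shRNAs. It had 37.5, 81.4 and 77.8 in control, 6.67, 8.84 and 6.35 with shRASSF2-1, and 21.5, 15.9 and 14.3 with shRASSF2-2. Here too the groups did not overlap, with shRASSF2-1 lowest, and the log2 differences were -2.94 and -1.81 (SE 0.36).

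The pair HIST2H2BE and HIST2H2AC therefore moved apart on either side of its 235 bases. The log2 ratio of HIST2H2BE to HIST2H2AC was 0.49, -0.74 and -0.18 in the control libraries, 5.08, 4.69 and 5.08 with shRASSF2-1, and 6.09, 6.63 and 7.02 with shRASSF2-2. By comparison, the ratio of HIST1H2BC to HIST1H2AC moved far less, from -1.36, -0.07 and -1.73 in control to -0.23, -1.13 and -0.82 with shRASSF2-1 and -2.29, -1.71 and -1.70 with shRASSF2-2. In that pair the control libraries overlapped both knockdown groups. Another pair joins HIST1H2BJ with HIST1H2AG, 247 bases apart, and its ratio ran from -2.37 to 1.178 over all libraries with overlapping groups. These ratios use one normalization within each library, so the size factor bears on them only through the added 1.

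**Figure D2:**
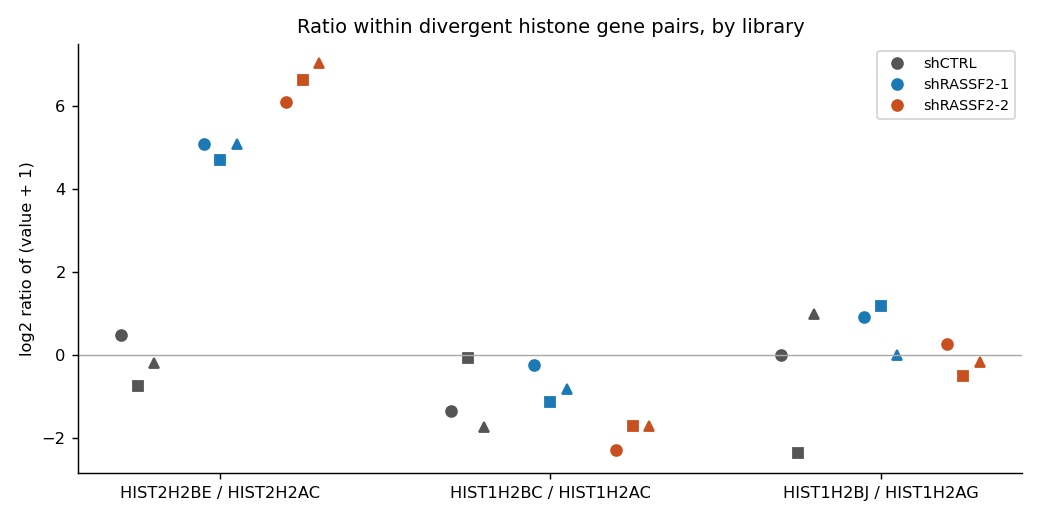
Log2 ratio of (value + 1) between the genes of each divergent histone pair with both strands known, 1 point per library, coloured by group. The ratio of HIST2H2BE to HIST2H2AC lies between -0.74 and 0.49 in control and between 4.69 and 7.02 in the knockdown libraries. The controls overlap both knockdown groups in the other pairs shown. HIST1H2BK with HIST1H2AH is not shown.

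HIST1H1C (3006, now H1-2; chr6:26055740-26056470, minus strand) encodes the linker histone H1.2, which binds DNA at the edge of the nucleosome. It had 138, 266 and 257 in control, 659, 524 and 675 with shRASSF2-1, and 194, 261 and 212 with shRASSF2-2. It was high with shRASSF2-1: the log2 difference from control was 1.54 there, and 0.06 with shRASSF2-2 (SE 0.24), whose libraries lay within the range of the controls. In the authors' deposited table, which gives one knockdown against control comparison, HIST1H1C had a log2 fold change of 0.85. HIST1H4H (8365, now H4C8; chr6:26285126-26285534, minus strand) encodes the core histone H4, and its controls were far apart, at 64.1, 2.49 and 2.81. The shRASSF2-1 libraries had 24.8, 17.7 and 27.2 and the shRASSF2-2 libraries 13.6, 32.9 and 15.4. The log2 differences were 1.32 and 1.08 (SE 0.94), and edgeR on recovered reads gave 0.09 and -0.11. In the authors' deposited table HIST1H4H had -0.05.

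Against control, differences past an adjusted p of 0.05 (limma, all genes) were present for 5 of the 9 genes in the higher and 1 in the lower direction with shRASSF2-1, where 56.1% of the 15465 genes tested were called (26.9% higher and 29.2% lower). With shRASSF2-2 they were 6 higher and 1 lower, where 60.9% were called (31.8% higher and 29.1% lower). Scaling by total reads gave another split over all genes with shRASSF2-1, 7031 higher and 2595 lower against 4160 and 4509 here. Since these contrasts chose the genes, nothing is read from the counts. Against control replicate 3 by itself the log2 differences of HIST2H2BE were 1.87 and 4.63, those of HIST1H2BK 1.48 and 2.40, those of HIST1H2AC 1.03 and 3.14, and those of HIST2H2AC -3.26 and -2.13. For HIST1H2BC they were 2.04 and 2.96, and for HIST1H1C 1.26 and -0.22.

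The contrast between the shRNAs lies wholly within the shared flow cell. The values of both knockdown groups were known when the genes were chosen, so it too is given without a test. Over all genes 58.5% were called in it (30.0% higher and 28.5% lower with shRASSF2-2), and 2900 higher and 7368 lower with scaling by total reads against 4647 and 4403 here. Of the 9 genes, 6 passed an adjusted p of 0.05 (limma) in the higher and 1 in the lower direction, and nothing is read from these counts. HIST1H2BD had the widest difference among the 9, 3.95 (SE 0.23) on the log2 scale. HIST2H2BE followed with 2.76 (SE 0.15), HIST1H2AC with 2.11 (SE 0.29) and HIST1H2BK with 0.92 (SE 0.15).

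HIST2H2AC was also higher in the shRASSF2-2 libraries, by 1.13 (SE 0.36), although it was below control with both shRNAs. HIST1H2BC differed by 0.93 (SE 0.31). With scaling by total reads these differences were 0.78 and 0.54. HIST1H1C had -1.48 (SE 0.24), the opposite direction to the H2B genes. HIST1H2BJ differed by 1.11 (SE 0.75) with libraries that did not overlap, and HIST1H4H by -0.25 (SE 0.94) with libraries that did.

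**Figure D3:**
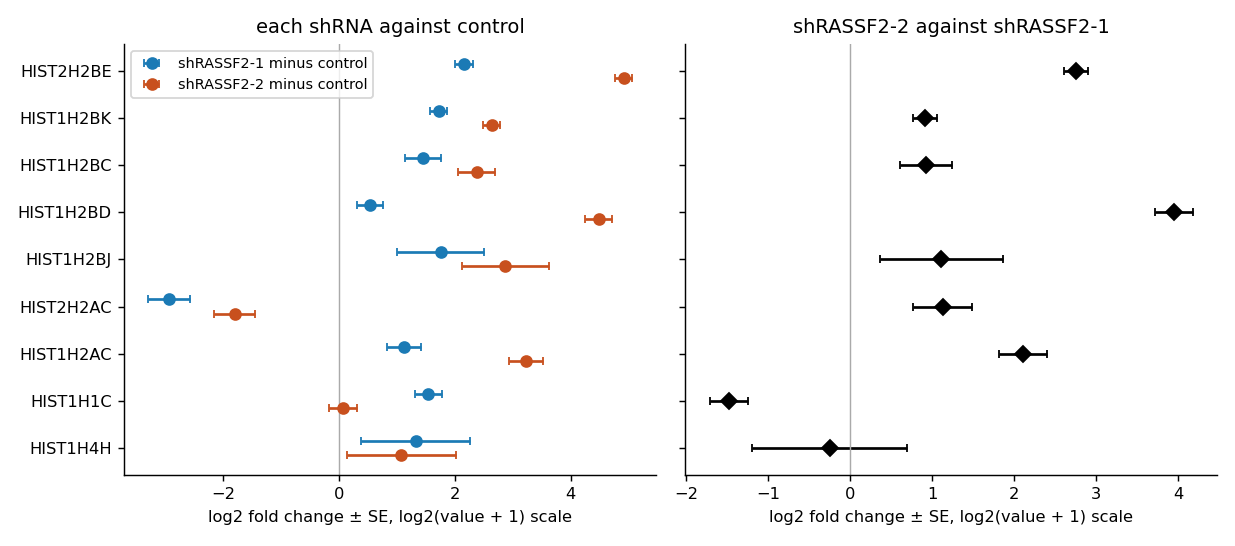
Log2 fold change with its standard error for the 9 histone transcripts, on the log2(value + 1) scale. The left panel sets each shRNA against control, where HIST2H2AC lies at -2.94 and -1.81, and the right panel sets shRASSF2-2 against shRASSF2-1, where HIST1H1C is at -1.48 and HIST1H2BD at 3.95.

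The genes whose differences from the control mean were most like those of HIST2H2BE were found by the root mean square log2 difference over the 9 libraries, among 11502 others whose mean was 5 CPM or more. They were SERPINI1 (0.25), LPAR6 (0.28), CADM1 (0.28), KCNJ2 (0.30) and GPR82 (0.35). SERPINI1, which encodes the serine protease inhibitor neuroserpin, had log2 differences of 2.21 and 4.60. For HIST2H2AC the nearest were OXCT1 (0.35), RASSF2 (0.36), RRM1 (0.37), S100A8 (0.37) and AGMAT (0.40). RRM1, the large subunit of ribonucleotide reductase, had -2.53 and -1.96. No histone gene was among these 10, but the cutoff of 5 CPM had left out histone genes with low values, HIST2H2AC among them.

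Among the other replication-dependent histone genes, 12 had a value of at least 10 in some library of more than 1 group. Of these, shRASSF2-1 libraries gave 2 that rose and 10 without a call, and shRASSF2-2 libraries 9 that rose and 3 without a call. The filter asked for 3 libraries, so it still bore on these counts, and nothing is read from them. HIST1H2AG, HIST1H2BN, HIST1H4K and HIST2H2AA4 passed only with their shRASSF2-2 libraries. HIST1H2BG and HIST1H3H passed through knockdown libraries only. Of 61 genes listed, 41 were in the table and 17 passed the filter on low values. The other 5 passed through one group, 3 of them through shRASSF2-2 (HIST2H2AA3, HIST3H2BB and HIST2H4B), so they had to be high in that group. Over all 17, 2 rose and 1 fell with shRASSF2-1, leaving 14 without a call (median log2 difference 0.74, against 0.02 over all genes tested). Of all genes tested, 26.9% rose and 29.2% fell with shRASSF2-1. With shRASSF2-2 12 of the 17 rose and 1 fell, leaving 4 without a call (median 2.60, against 0.04), where 31.8% and 29.1% of all genes did. Without control replicate 1 the counts over all 17 were 7 higher and 1 lower with shRASSF2-1, and 11 higher and 1 lower with shRASSF2-2. Scaling by total reads gave 5 higher and 1 lower with shRASSF2-1. Between the shRNAs 8 were higher and 1 lower with shRASSF2-2 (median 1.46), where 30.0% and 28.5% of all genes tested were. The lower one, HIST1H1D, passed the filter through shRASSF2-1 only. The filter bore on the direction of many of the 17, so nothing is read from these counts and medians. HIST2H2BF, an H2B gene, rose from 39.7 ± 18.7 to 95.7 ± 10.3 and 269 ± 64.6 (SD, n = 3; limma adjusted p 0.00338 and 1.65e-05). HIST1H2BG, another H2B gene, had 4.46 ± 2.43 in control, 21.01 ± 7.03 with shRASSF2-1 and 31.9 ± 13.7 with shRASSF2-2 (SD, n = 3). As it passed the filter through knockdown libraries only, no p is given. HIST3H2A had 49.2 ± 8.92 in control, 50.1 ± 11.8 with shRASSF2-1 and 138 ± 11.9 with shRASSF2-2 (limma adjusted p 0.964 and 0.000178). HIST1H2AG, the divergent partner of HIST1H2BJ, had log2 differences of 0.60 with shRASSF2-1 and 2.55 with shRASSF2-2. No p is given for it, because it passed the filter only with its shRASSF2-2 libraries.

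The gene counted as lower with both shRNAs was HIST1H2BH, named after its values were seen. It passed the filter through control only, so its direction was fixed and no p is given. It had 55.1 ± 23.3 in control, 6.43 ± 3.67 with shRASSF2-1 and 6.77 ± 3.06 with shRASSF2-2, with log2 differences of -2.95 and -2.84 (SD, n = 3). Of the nearest histone neighbours outside the 9, HIST2H2AB, 57 bases from HIST2H2AC, did not pass the filter and had 35.1, 5.81 and 4.69 in control and at most 10.99 in the knockdown libraries. HIST1H4I, which lies inside the span of HIST1H2BK, was at most 6.67 in any library. HIST1H1E, HIST1H3C and HIST1H2BI, the nearest to HIST1H2BD, HIST1H1C and HIST1H4H, did not pass the filter either. Histone coding sequences have near-identical copies, and the counting rules for strand and for reads with several matches are not known here. The values of single histone genes are therefore uncertain where copies could share reads. HIST1H2BD also overlaps the antisense RNA gene H2BC6-AS1.

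**Figure D4:**
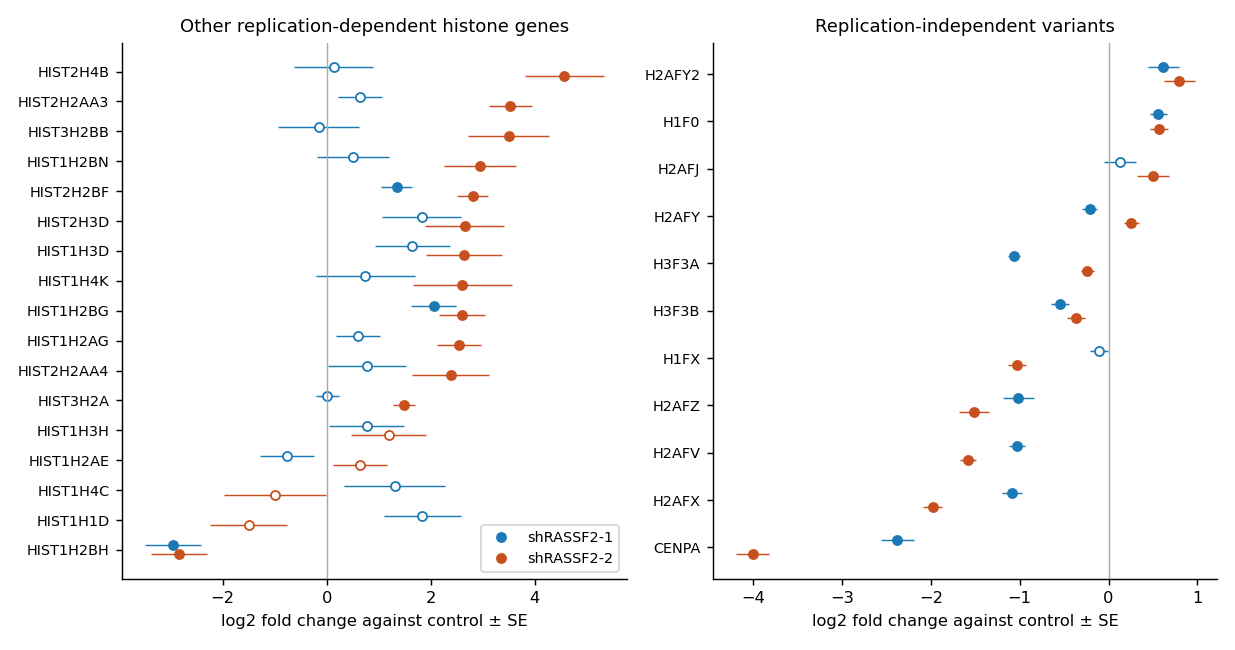
Log2 fold change against control on the log2(value + 1) scale for each of the other replication-dependent histone genes tested and for the replication-independent histone variants, coloured by shRNA, with bars for the SE; filled points passed an adjusted p of 0.05 and open points did not. HIST1H2BH is at -2.95 and -2.84, HIST2H2BF at 1.34 and 2.80, and CENPA at -2.38 and -4.01. The filter on low values bears on the direction of several genes, as HIST1H2BH passed it through control only.

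The replication-independent histone variants, most of whose mRNAs are polyadenylated whether or not cells divide, mostly went the other way. Of 11 tested, 2 rose and 7 fell with shRASSF2-1 (median -0.55), and 4 rose and 7 fell with shRASSF2-2 (median -0.37). Over all genes tested, 26.9% rose and 29.2% fell with shRASSF2-1, and 31.8% and 29.1% with shRASSF2-2. With scaling by total reads, which shifted all shRASSF2-1 differences by a median of 0.38, the shRASSF2-1 split was 4 and 5. CENPA, the histone H3 variant of centromeres, fell, with log2 differences of -2.38 and -4.01 (limma adjusted p 3.2e-06 and 4.37e-08). H2AFX, the H2A variant phosphorylated at DNA breaks, had -1.09 and -1.98 (limma adjusted p 1.69e-05 and 1.26e-07), and H2AFV, an H2A.Z gene, had -1.03 and -1.58 (limma adjusted p 6.34e-06 and 1.55e-07). H3F3A, a gene of the variant H3.3, had -1.06 and -0.24 (limma adjusted p 1.17e-06 and 0.0143). The 2 that rose with shRASSF2-1 were H2AFY2 (0.62 and 0.80) and H1F0 (0.56 and 0.57), named outside the naming rule. Both also rose with shRASSF2-2.

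Genes that transcribe, process and degrade stem-loop histone mRNA were mostly lower. Of 22 tested, 3 rose and 16 fell with shRASSF2-1 (median -0.56), and 2 rose and 14 fell with shRASSF2-2 (median -0.56). The shares that fell over all genes were 29.2% and 29.1%. With scaling by total reads the shRASSF2-1 split was 5 and 9. SLBP and NPAT, the activator of histone gene transcription, are named for their roles outside the naming rule. SLBP fell, with log2 differences of -0.95 and -0.88, from 2009 ± 453 to 1021 ± 82.5 and 1075 ± 63.4 (SD, n = 3; limma adjusted p 0.000352 and 0.000474). NPAT had -0.93 and -0.58 (limma adjusted p 7.72e-05 and 0.00152). The cyclin E genes, whose products with CDK2 phosphorylate NPAT, also fell, with -1.07 and -2.85 for CCNE2 and -0.51 and -2.27 for CCNE1 (limma adjusted p from 9e-07 to 0.0413). SRRT, which links the cap-binding complex to 3′ end processing, had -0.59 and -1.12, and MIF4GD, a partner of SLBP in translation, had -1.44 and -0.57 (limma adjusted p at most 0.000387).

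Of 21 genes of general mRNA cleavage and polyadenylation, 1 rose and 10 fell with shRASSF2-1 (median -0.26), and 1 rose and 13 fell with shRASSF2-2 (median -0.36). Their shares of calls lay near those over all genes, 56.1% and 60.9%, so the totals are no result about the list. With scaling by total reads the shRASSF2-1 split turned to 6 higher and 3 lower, so no direction is given there. NUDT21, a cleavage factor subunit that guides the choice of poly(A) site, fell by 1.34 on the log2 scale with shRASSF2-2 (limma adjusted p 4.49e-07) and had -0.38 with shRASSF2-1. CPSF4, a subunit of the complex that binds the poly(A) signal, had -0.94 and -0.85, and CPSF6, a partner of NUDT21, had -0.39 and -0.66. PABPC1, the cytoplasmic poly(A)-binding protein, had -0.80 and -0.44.

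Histone chaperones with the acetyltransferase HAT1, which receive newly made histones, were mostly lower with either shRNA. Of 24 tested, 1 rose and 18 fell with shRASSF2-1 (median -1.22), and 2 rose and 18 fell with shRASSF2-2 (median -1.07). Here and for the S phase genes below, the shares that fell over all genes were 29.2% and 29.1%. CHAF1A, the large subunit of the chromatin assembly factor CAF-1, fell, with log2 differences of -1.43 and -2.43 (limma adjusted p 2.83e-06 and 3.78e-08). NASP, which holds free H3 and H4, had -1.47 and -1.24, RBBP4, a histone-binding subunit of CAF-1, -0.70 and -1.94, and the histone co-chaperone DNAJC9 -1.71 and -1.10 (limma adjusted p at most 3.02e-05). Of 34 S phase genes, 33 fell with shRASSF2-1 (median -1.67) and 34 fell with shRASSF2-2 (median -2.13). RRM2, the small subunit of ribonucleotide reductase, had log2 differences of -2.18 and -3.62. The helicase subunit genes MCM7 and MCM6 had -1.85 and -2.84, and -1.52 and -2.14, and DUT, which removes dUTP, had -1.77 and -2.39 (limma adjusted p at most 1.38e-06). With scaling by total reads 32 of the 34 still fell with shRASSF2-1 and 1 rose. The knockdown libraries in which the H2B transcripts stood high were thus those in which S phase genes were low, and the part of one in the other was not tested.

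**Figure D5:**
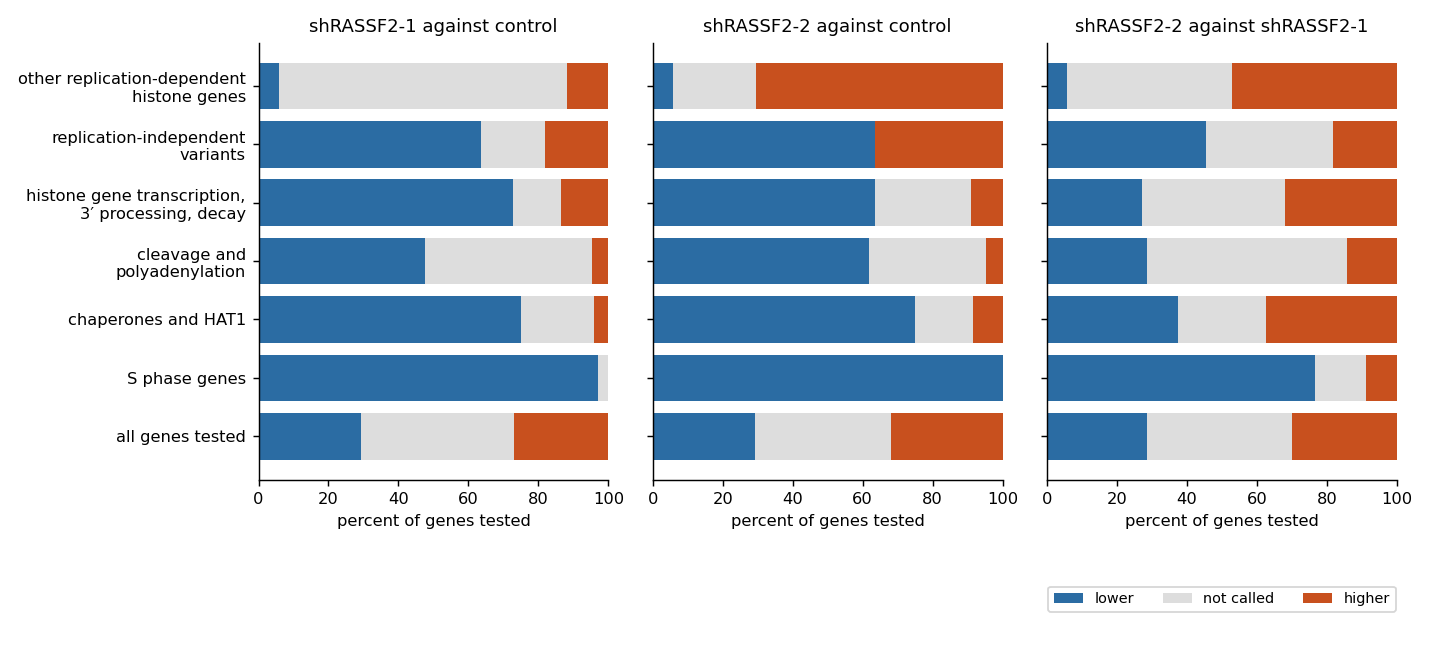
Percent of the genes tested that were called higher, called lower or not called (limma, adjusted p under 0.05) in each list and over all genes, with a panel for each comparison. S phase genes are lower in 33 and 34 of 34 against control (32 with shRASSF2-1 when scaled by total reads). With shRASSF2-2, 12 of 17 other replication-dependent histone genes are higher. Of these, 3 had values of at least 10 in that group only. HIST1H2AG, HIST1H2BN, HIST1H4K and HIST2H2AA4 also passed the filter only with its libraries.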

How the data were processed

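RNA from 9 THP-1 libraries was enriched with oligo(dT) and primed with random hexamers, per the labels' protocols. Per the submitters' processing notes, the tools were DESeq2 1.18.1, featureCounts 1.6.2, Picard and HISAT2 2.1.0, and the genome build was hg38. Annotation, strand setting and treatment of multi-mapping reads are not given in the sources used here. What the authors deposited is a normalized signal, in which each library's gene counts were divided by its size factor. Dividing each library by its lowest non-zero value gave whole numbers for 100% of values (tolerance 0.001), so whole reads were recovered. A log2 fold change and a p-value per gene, from one knockdown against control comparison over unstated libraries, were deposited with them.

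Values were tested as log2(value + 1) with limma-trend 3.58.1 in R 4.3.3, with all libraries in one fit on group. A value of 10 or more in 3 or more libraries was required, which left 15465 genes, all 9 histone genes included. Benjamini-Hochberg adjustment ran over all genes tested, and an adjusted p under 0.05 was called. The scripts were tested on simulated data. Counting error is set by 13.3 to 20.1 M reads per library, and the floor of 3 reads is 2.49 to 3.63 in normalized units. Positions and promoters were matched by Entrez identifier and symbol to RefSeq (GRCh38.p14), and all 9 genes matched; stem-loops were read from GENCODE v29 transcripts.

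The 9 genes and the lists were chosen with earlier results of these data known. Named are the 9 genes, RASSF2, their nearest histone neighbours, the 5 genes most like HIST2H2BE and HIST2H2AC, and up to 4 genes of each list whose mean was 1 CPM or more, by smallest p with either shRNA; of the marker lists, ranges and genes near 0 are also given. Alternatives were edgeR 4.0.16 with TMM and DESeq2 1.42.0 on the recovered reads, scaling by total reads, pseudocounts of 0.1 and 5, no filter, a filter of 1 CPM in 3 libraries, a flow cell covariate, a replicate block, the 7 libraries run together without the other 2, and each library left out.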

Additional observations from a re-analysis of the deposited data

How the results depend on the processing

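Calls over all genes stayed within 1.5 times the main count under every alternative run, as did the count of the 9 histone genes between the shRNAs (7 in the main fit, 5 with total reads, 8 with the 7 libraries of the shared flow cell, 6 to 8 with 1 library left out). Values that were not called could change sign: HIST1H4H, at 1.32 and 1.08 against control, was 0.09 and -0.11 with edgeR, 0.02 and -0.15 with DESeq2, and 2.71 and 2.46 without control replicate 1, and HIST1H1C with shRASSF2-2 went from 0.06 to -0.24 without that library. HIST1H2BJ went from 1.76 and 2.87 to 0.44 and 1.55 with the flow cell covariate. The number of other replication-dependent histone genes called with shRASSF2-1 against control, 3 in the main fit, was 6 with scaling by total reads, 5 with the flow cell as a covariate, 6 with the 7 libraries of the shared flow cell, and 3 to 8 with 1 library left out, the 8 being without control replicate 1. With total reads the split of calls over all genes moved to 7031 higher and 2595 lower for shRASSF2-1, and that of polyadenylation genes to 6 and 3. Polyadenylation genes called between the shRNAs were 9 in the main fit and 15 with total reads, and the cause was not tested. On recovered reads, edgeR with TMM called 8729, 9386 and 9108 genes for shRASSF2-1, shRASSF2-2 and their difference, and DESeq2 8947, 9533 and 9275. Same-numbered libraries had correlations of their deviations from -0.156 to 0.12, and different-numbered ones from -0.0953 to 0.139. No pairing by number was seen, but so few libraries per group cannot exclude one. With the replicate number as a block 8289, 9126 and 8754 genes were called, and 7 of the 9 histone genes between the shRNAs, as before. The fit on 7 libraries holds 1 control, which is assumed to vary like the other groups. Values under about 10, such as HIST1H2BJ and HIST1H4H in controls, rest on few reads.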

Other observations

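HIST2H4B, an H4 gene chosen after its values were seen, was near 0 in control (2.42, 0 and 0) and with shRASSF2-1 (0, 3.54 and 0), and had 41.9, 37.4 and 26.4 with shRASSF2-2. The near-identical H2A genes HIST2H2AA3 and HIST2H2AA4, likewise chosen afterwards, had 2.79 ± 1.78 and 5.65 ± 6.70 in control, and 40.02 ± 1.28 and 25.9 ± 16.1 with shRASSF2-2 (SD, n = 3). HIST2H4B and HIST2H2AA3 passed the filter on low values through shRASSF2-2 only, and HIST2H2AA4 only with its shRASSF2-2 libraries, so no p is given. These genes lie on chromosome 1 near HIST2H2BE, and reads shared between copies could move values between them. The summed value of the other replication-dependent histone genes was 573 in control replicate 1 and 242 and 258 in the other controls, from 308 to 435 for shRASSF2-1 and from 782 to 912 for shRASSF2-2; no test was run on these sums.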
